A study of Homo sapiens with 6 samples.

Results

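The miR-191 and miR-425 cluster consists of 2 microRNA (miRNA) stem-loops, mir-191 and mir-425, which lie next to each other inside the gene DALRD3. Its members were taken by name: every mature sequence listed under either stem-loop was kept, which gave 4 sequences, both arms of each stem-loop, of 437 mature sequences listed in all. Small RNA was sequenced from MDA-MB-231, an established human breast adenocarcinoma cell line that does not depend on oestrogen, with no transgene or drug in either group. The parental group (3 samples) was grown as an attached monolayer (2D) in RPMI-1640 medium with fetal bovine serum, and the spheroid group (3 samples) was grown in suspension (3D) without serum, so attachment and serum cannot be told apart. The spheroid cultures served as a model of cancer stem cells, and both groups come from a single cell line.

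Each condition has 1 deposited table of whole read numbers per mature sequence. They hold 539798 reads for parental and 1553014 reads for spheroid cells, which is 2.88 times as many. The sample descriptions name the same table for all 3 samples of a condition, and the tables have 0 columns per sample, so no value below has a replicate error. All intervals are exact binomial 95% intervals that treat reads as independent and cover counting error only, and PCR copies may make them too narrow even for that. Levels are reads per 1000000 reads of the table (rpm), and a fold is spheroid over parental. Markers were as follows in both tables: 7 epithelial miRNAs (miR-200 family, miR-205 and miR-203a) summed to 83.4 rpm in parental and 125 rpm in spheroid cells, whereas miR-21-5p, miR-221-3p, miR-222-3p and miR-10b-5p together held 300650 and 270489 rpm. Of the blood markers, mir-451a and mir-223 had no row, and miR-144-5p had 1 read in each table. miR-142-5p had 12 and 41 reads (22.2 and 26.4 rpm), and the sequence listed for mir-486 stood at 17506 and 22427 rpm. Of the other markers, endothelial miR-126-5p had 33 and 361 reads, muscle miR-133a-3p 0 and 14, and liver miR-122-5p 0 and 2. The part of RNA from other cells or serum in the results was not tested.

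A miRNA gene is transcribed as part of a longer RNA, from which Drosha cuts a stem-loop and Dicer cuts a short duplex. The strands of the duplex are the 5p and 3p arms, and the arm that is loaded into Argonaute persists and represses messenger RNAs that match its seed, bases 2 to 8 of the mature sequence. The ends of a mature miRNA vary between molecules, so reads of 1 arm fall into the annotated sequence and variants of it. DALRD3, the host gene, encodes a protein needed for a methylation of arginine transfer RNAs. miR-191 is a widely expressed miRNA, raised in several solid tumours and often used as a reference in qRT-PCR, and oestrogen is known to induce the cluster in oestrogen receptor positive breast cancer cells.

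On GRCh37, mir-191 lies on the minus strand of chromosome 3 at chr3:49058051-49058142 and mir-425 at chr3:49057581-49057667, with 383 bases between them. Both fall in intron 1 of the 4 annotated DALRD3 transcripts that span them (GENCODE 44). RefSeq (table of build GRCh38.p14) held a mature entry for 3 of the 4 arms. They are shown 5′ to 3′ with the seed in capitals, because the seed sets which targets an arm can pair with and because the exact reads described below are reads equal to these letters.
miR-191-5p: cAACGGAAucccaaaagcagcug
miR-191-3p: gCUGCGCUuggauuucgucccc
miR-425-3p: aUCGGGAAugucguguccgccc
The whole stem-loop of mir-191, with both mature arms in capitals, shows how the arms face each other across the loop.
mir-191: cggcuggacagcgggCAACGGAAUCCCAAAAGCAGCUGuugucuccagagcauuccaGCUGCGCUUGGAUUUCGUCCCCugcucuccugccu
The 4 members do not share a seed with each other. None of the other sequences among the 436 with a read has the seed of a member (0 for each of the 4 arms), so in these tables each of the 4 was the only counted sequence of its seed.

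miR-191-5p made up nearly all the reads of the cluster in both cultures. It had 13211 reads in parental and 34365 reads in spheroid cells. This is 24474 rpm (interval 24063 to 24890) in parental and 22128 rpm (21897 to 22360) in spheroid cells. It held rank 8 among the parental and rank 11 among the spheroid sequences. In the parental order it stood between miR-30a-5p (28481 rpm) and let-7f-5p (23370 rpm), and neither interval touched its own. In the spheroid order it stood just below the sequence listed for mir-486 (22427 rpm, interval 22194 to 22661), whose interval overlapped its own, and above miR-30a-5p (19077 rpm).

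miR-425-5p, the second member by reads, had 355 parental and 1196 spheroid reads. Its level was 658 rpm (591 to 730) in parental and 770 rpm (727 to 815) in spheroid cells, at rank 79 and rank 78. Its interval overlapped those of both parental neighbours, miR-1307-3p (687 rpm) and miR-140-3p (652 rpm), and that of miR-532-5p (775 rpm), just above it in spheroid cells. The next sequence below it in spheroid cells, miR-301a-3p (662 rpm, 622 to 704), did not overlap it. The 3p arms were scarce. miR-425-3p had 45 reads (83.4 rpm, 60.8 to 112) in parental and 92 reads (59.2 rpm, 47.8 to 72.7) in spheroid cells. miR-191-3p had 30 reads (55.6 rpm, 37.5 to 79.3) and 56 reads (36.1 rpm, 27.2 to 46.8), the lowest of the 4 members in either table. Together the 4 arms made up 2.53% of all reads in parental and 2.30% in spheroid cells, and miR-191-5p was 96.8% and 96.2% of that sum.

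**Figure D1:**
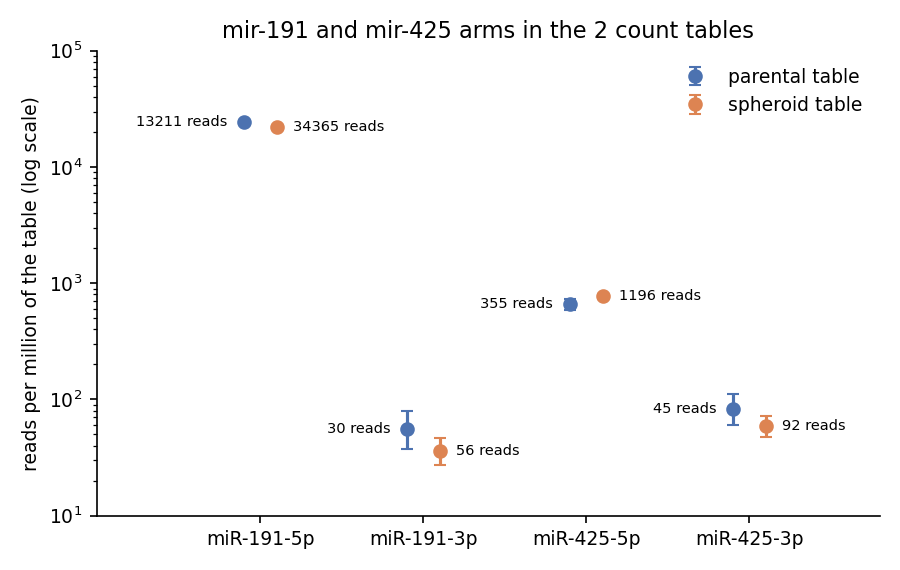
Level of each arm in rpm (log scale), parental in blue and spheroid in orange, with the read count beside each point. Bars are exact 95% intervals for counting error, which for miR-191-5p are smaller than the points. miR-191-5p stands at 24474 and 22128 rpm, and the 3p arms run from 36.1 to 83.4 rpm.

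None of the 4 members was called different between the tables. A sequence was called at a Benjamini-Hochberg adjusted p under 0.05 in Kal's Z-test and a fold over 2, and 13.8% of the 436 sequences tested were called, 4.82% as higher and 8.94% as lower in spheroid cells. It is a test between 2 tables of reads and has no spread between cultures behind it. miR-191-5p had a fold of 0.904 (0.886 to 0.923), with an adjusted p of 2.22e-22 by Kal's Z-test. With table totals as the scale, the difference is beyond counting error and well inside the fold threshold. miR-425-5p had a fold of 1.17 (1.04 to 1.32) with an adjusted p of 0.0247 in the same test. The 3p arms were at 0.649 (0.409 to 1.05, adjusted p = 0.128) for miR-191-3p and 0.711 (0.492 to 1.04, adjusted p = 0.138) for miR-425-3p by Kal's Z-test, and their intervals hold 1. An adjusted p under 0.05 without a fold threshold was reached by 2 of the 4 members, 1 with a fold above 1 and 1 below, against 37.8% of all sequences (14.7% above and 22.7% below 1). A fold over 2 in either direction was reached by 0 of the 4, against 27.4% of the 369 sequences with a fold. Of the 3 members with at least 100 reads 0 were called, against 19.7% of the 183 such sequences. In bulk RNA, fewer cells that make a miRNA and less of it per cell cannot be told apart.

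The direction of miR-191-5p depends on the scale. Over all 369 sequences with a fold, the median log2 fold was -0.20, and over the 89 sequences with at least 1000 reads it was -0.12, against -0.15 for miR-191-5p and 0.23 for miR-425-5p. miR-191-5p thus lay between both medians, and miR-425-5p lay above them. With TMM factors each log2 fold shifted by 0.16, which put miR-191-5p at a fold of 1.01. Median-of-ratios factors shifted them by 0.20, which put it at 1.04. miR-425-5p kept a fold above 1 under both (1.31 and 1.35), and the 3p arms kept folds below 1 (0.727 and 0.747 for miR-191-3p, 0.796 and 0.818 for miR-425-3p). Total reads of each library, with other RNA included, were a further scale. With these, every log2 fold moved by 1.14, and the folds were 2.00 for miR-191-5p, 1.43 for miR-191-3p, 2.59 for miR-425-5p and 1.57 for miR-425-3p. On this scale miR-425-5p was called higher, as were 32.1% of all sequences. Whether the library totals belong to these tables is unclear. The miRNA-mapped parental reads listed with them far exceed the deposited parental table, whereas the spheroid numbers lie close together. The reads listed there for the most abundant miRNA equal the deposited counts, 108885 for miR-21 in parental and 277306 for miR-10a in spheroid cells. The folds on this scale may reflect mismatched totals, which was not tested.

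**Figure D2:**
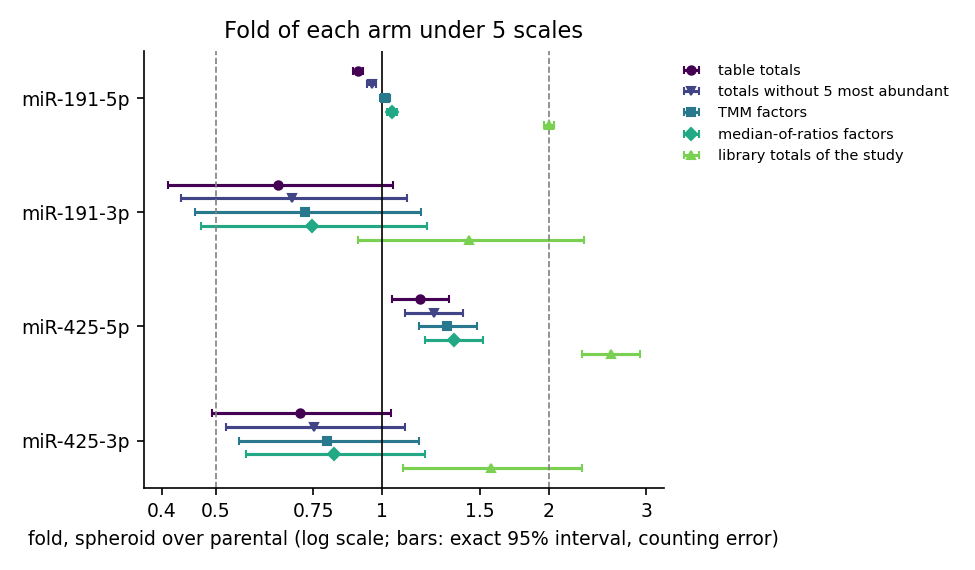
Fold of each arm, spheroid over parental (log axis), under 5 ways to scale the tables, with exact 95% intervals for counting error and dashed lines at a fold of 0.5 and 2. miR-191-5p moves from 0.904 with table totals across 1 to 1.01 with TMM and 1.04 with median-of-ratios factors. The library totals of the study, which may not belong to the parental table, shift all 4 arms to the right alike.

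The ratio between the cluster mates is free of the scale, since both come from the same table. There were 37.2 reads of miR-191-5p for each read of miR-425-5p in parental cells and 28.7 in spheroid cells. The ratio in spheroid cells was 0.772 times that in parental cells (interval 0.683 to 0.871), so miR-425-5p gained on miR-191-5p beyond counting error. No replicate values are at hand to set this against the spread between cultures. With reads equal to the annotated sequence alone, the change was 0.308, from 9 parental and 70 spheroid reads of miR-425-5p. That value also takes in the shifts in exact share described below. Among the 3p arms there were 0.667 reads of miR-191-3p for each read of miR-425-3p in parental and 0.609 in spheroid cells, a change of 0.913 with an interval from 0.498 to 1.68 that covers both directions. The order of the stem-loops thus differs by arm: miR-191 led by far on the 5p side, whereas miR-425 had the more 3p reads in both tables. On the 3p side the level intervals overlap in parental cells (30 and 45 reads) and are apart in spheroid cells (56 and 92 reads).

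Other clusters inside a single protein-coding gene were set beside it, each with the sequences of at least 100 reads that name 1 stem-loop only. In DALRD3 the fold of miR-425-5p was 1.30 times that of miR-191-5p (interval 1.15 to 1.46). In MCM7, whose miR-25, miR-93 and miR-106b are relatives of the miR-17 cluster, the highest fold (miR-25-3p, 0.757) was 1.07 times the lowest (miR-106b-5p, 0.707; interval of the ratio 0.946 to 1.21). In AOPEP the ratio was 1.09 (1.01 to 1.17) between miR-23b-3p and miR-27b-3p. In CLCN5 it was 1.24 (1.08 to 1.43) between miR-500a-3p and miR-532-5p, and in GABRE it was 1.30 (0.949 to 1.78) between miR-224-5p and miR-452-5p. In SKA2 it was 1.74 (1.19 to 2.53) between miR-301a-3p and miR-454-3p. By value the gap in DALRD3 lay inside the range of the other 5 clusters, above MCM7, AOPEP and CLCN5 and below SKA2. Each ratio sets the highest fold over the lowest, so it cannot fall below 1. It also tends to grow with the number of sequences, which was 3 in MCM7 and CLCN5 and 2 in DALRD3. With the clusters in SMC4, NFYC and HUWE1 added and no minimum of reads, 23 sequences of other clusters were measured. Of these, 2 were called lower (miR-98-5p of HUWE1 and miR-454-3p of SKA2) and 0 higher, against 8.94% and 4.82% of all sequences. Their median log2 fold was -0.32 over the 22 with a fold, against -0.20 over all sequences. Over the 15 of them with at least 100 reads it was -0.39, against -0.11 over all 183 such sequences.

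**Figure D3:**
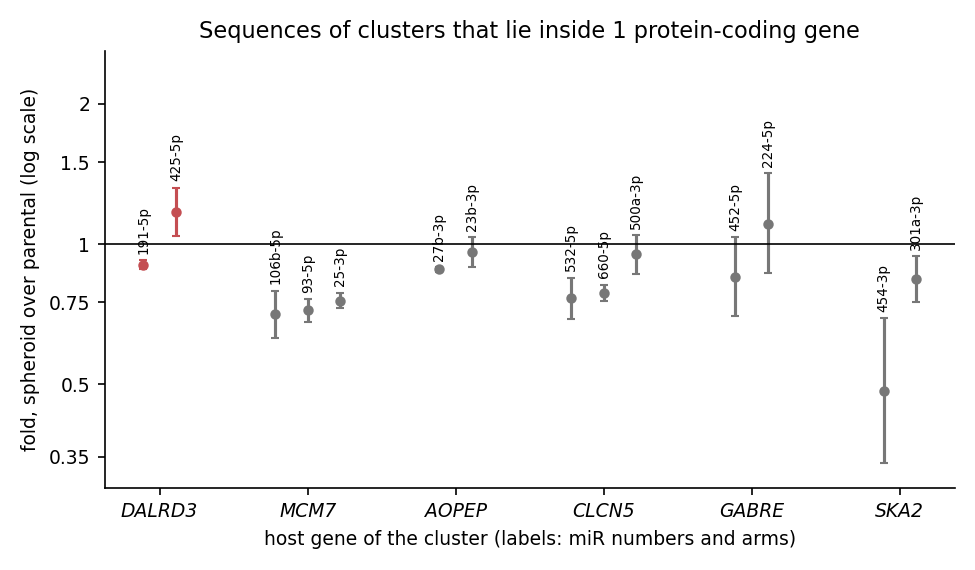
Fold, spheroid over parental with table totals (log axis), of sequences with at least 100 reads from clusters that lie inside 1 protein-coding gene, with exact 95% intervals for counting error. The DALRD3 pair is red, and its members sit on either side of 1 at 0.904 and 1.17, although miR-191-5p moves to 1.01 with TMM and 1.04 with median-of-ratios factors. The 3 MCM7 sequences lie close together and the SKA2 pair lies farthest apart.

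The 5p arm was the major arm of both stem-loops in both tables. For mir-191 it held 99.8% of the arm reads in parental (interval 99.7% to 99.8%) and in spheroid cells (99.8% to 99.9%), or 440 and 614 reads of the 5p arm for each read of the 3p arm. The change in that ratio was 1.39 with an interval of 0.863 to 2.21, so it was not detectable at this depth. For mir-425 the 5p arm held 88.8% (85.2% to 91.7%) of the reads in parental and 92.9% (91.3% to 94.2%) in spheroid cells. This is 7.89 and 13 reads of the 5p arm per read of the 3p arm, a change of 1.65 (1.10 to 2.43). Among 99 stem-loops that name 1 locus, with both arms counted and at least 100 reads, the major arm held a median of 97.1% in parental and 97.7% in spheroid cells. mir-191 ranked 20 and 15 from the most one-sided, and mir-425 ranked 76 and 69.

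The cluster mates differed in how their reads matched the annotated sequence. Of the miR-191-5p reads, 10729 in parental and 25675 in spheroid cells were equal to it, an exact share of 81.2% (80.5% to 81.9%) and 74.7% (74.2% to 75.2%). Of the miR-425-5p reads only 9 and 70 were, an exact share of 2.54% (1.17% to 4.76%) and 5.85% (4.59% to 7.34%). The rest of the reads were variants in length or sequence, and the tables do not give which. For comparison, 34.9% of all parental and 32.7% of all spheroid reads were exact. Among the 128 sequences with at least 100 reads in each table the median exact share was 40.5% and 36.7%. miR-191-5p ranked 13 and 15 from the top of these, and miR-425-5p ranked 20 and 25 from the bottom.

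The exact shares moved in opposite directions. That of miR-191-5p differed by -6.5 percentage points, spheroid minus parental, and its odds of an exact read in spheroid cells were 0.683 times those in parental cells (interval 0.650 to 0.719). That of miR-425-5p differed by 3.32 points, and its odds were 2.39 times those in parental cells (interval 1.17 to 5.50). The median change over the 128 sequences was -0.590 points, with quartiles of -3.82 and 1.19, so both lay outside the quartiles. Split by kind and divided by all reads of the table, the exact reads of miR-191-5p had a fold of 0.832 (0.813 to 0.851), and its variants had a fold of 1.22 (1.16 to 1.27). For miR-425-5p the exact reads had a fold of 2.70 (1.35 to 6.16), from 9 and 70 reads, and the variants had a fold of 1.13 (1.0 to 1.28). Divided by the exact reads of the table instead, miR-425-5p had a fold of 2.88 and was called higher, as were 5.79% of the 311 sequences with an exact read. The 3p arms had almost no exact read: miR-191-3p had 0 of 30 and 0 of 56, with exact upper limits of 11.6% and 6.38%, and miR-425-3p had 1 of 45 and 0 of 92, the latter with an upper limit of 3.93%. Set at a floor of 3 reads, these 3 limits are 10%, 5.36% and 3.26%. By exact reads alone miR-191-5p ranked higher than by all reads, at rank 5 with 5.69% of the exact reads in parental and rank 7 with 5.05% in spheroid cells. Every read of the 4 members was counted as unique to its sequence (100% in both tables), against 84.0% of all parental and 84.1% of all spheroid reads, so reads shared with other sequences play no part in these values.

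**Figure D4:**
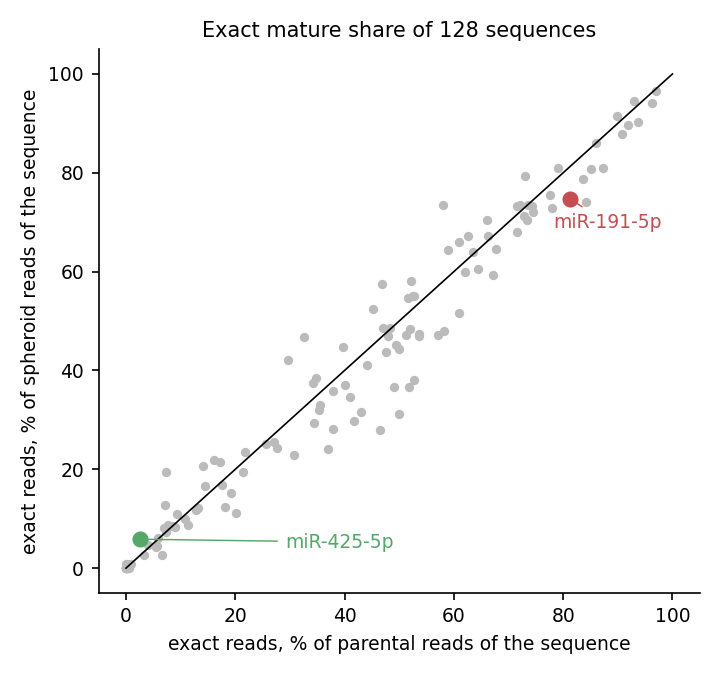
Exact mature share, the percentage of a sequence's reads that equal its annotated mature sequence, in parental (horizontal) against spheroid cells (vertical) for 128 sequences with at least 100 reads in each table. The line marks equal shares. miR-191-5p lies below the line at 81.2% and 74.7%, and miR-425-5p lies near the origin and above the line at 2.54% and 5.85%.

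Since miR-191-5p is itself used as a reference, it was set against 12 other miRNAs often used for that purpose, as reads per read of each within a table. Of these 12, miR-423-5p was called higher (fold 2.10, 1.92 to 2.31), miR-24-3p was called lower (0.472, 0.449 to 0.496) and 10 were not called, against 13.8% called over all sequences and 19.7% over those with at least 100 reads. Their median log2 fold was -0.26, against -0.20 over all sequences. The ratio of miR-191-5p to a reference changed by a median of 1.08 between the tables, from 0.430 against miR-423-5p to 1.92 against miR-24-3p. It was nearest to 1 against miR-484 (0.973, 0.797 to 1.18), let-7i-5p (1.06, 1.03 to 1.10), miR-103a-3p (1.10, 1.03 to 1.18) and miR-16-5p (1.11, 1.08 to 1.15). The interval lay above 1 for 7 references and below 1 for 4, and it held 1 for 1 of them, miR-484. The ratio of miR-425-5p to the same references changed by a median of 1.40, from 0.557 against miR-423-5p to 2.48 against miR-24-3p, with 7 intervals above 1 and 4 below.

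**Figure D5:**
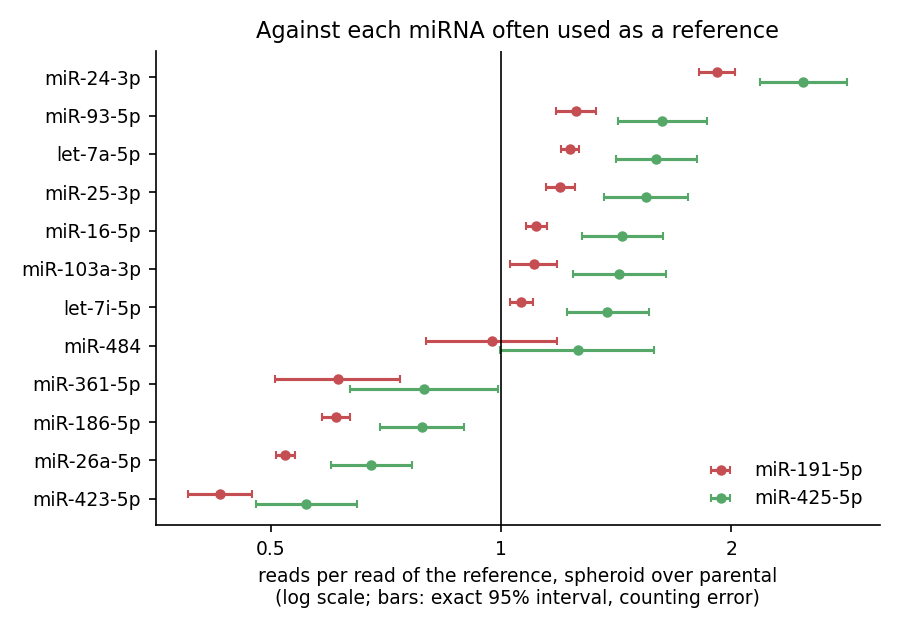
Change from parental to spheroid in the reads of miR-191-5p (red) and miR-425-5p (green) per read of each of 12 miRNAs often used as references (log axis), with exact 95% intervals for counting error. The values of miR-191-5p run from 0.430 against miR-423-5p to 1.92 against miR-24-3p, and miR-425-5p lies to the right of miR-191-5p by the same factor throughout, 1.30, since both are divided by the same reference.

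Among 10 further miRNAs often raised across solid tumours, as miR-191 is, 0 were called in either direction, against 13.8% of all sequences. Their folds ran from 0.518 for miR-32-5p to 1.22 for miR-92a-3p, and 7 of the 10 were below 1. miR-21-5p, the most abundant parental miRNA, had a fold of 0.858 (0.852 to 0.864), and miR-221-3p, which represses the cell cycle inhibitor p27, had a fold of 0.921 (0.896 to 0.946). The median log2 fold of this list was -0.17, close to the -0.15 of miR-191-5p. By fold alone, the sequences nearest to miR-191-5p among 88 others with at least 1000 reads were miR-125b-5p (0.900), miR-378a-3p (0.911) and miR-31-5p (0.896). Those nearest to the 1.17 of miR-425-5p were the more abundant sequence listed for mir-30b (1.17), miR-182-5p (1.18) and the sequence listed for mir-320a (1.19). With 2 tables, this likeness rests on a single number for each sequence.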

How the data were processed

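Small RNA libraries (TruSeq, Illumina HiSeq) of parental and spheroid MDA-MB-231 cells were analysed from 2 deposited tables, 1 per condition. According to the methods, reads of 17 to 27 nucleotides were kept by the authors after trimming. Annotation was done in CLC Genomics Workbench 7.0 against known miRNAs of miRBase 19 and Ensembl noncoding RNA (GRCh37, release 57). The deposited values are raw read counts per mature sequence: all reads, exact mature reads and unique reads, with 0 columns per sample. Whether samples were pooled before counting is not stated, and the sequencing summary of the study lists 1 index tag per condition. The totals are 539798 and 1553014 reads, and a floor of 3 reads is 5.56 and 1.93 rpm.

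The tables were joined on the mature sequence. Of 437 sequences, 388 were named by RefSeq mature entries, 25 by their place in the RefSeq stem-loop and 24 by stem-loop only. Coordinates are from GENCODE 44 on GRCh37, where both stem-loops matched the genome letter for letter. Counts were divided by the table total and compared by Kal's Z-test, and p-values were adjusted over 436 sequences (Benjamini-Hochberg), as in the methods of the study. For a sequence absent from 1 table the floor stood in for it, and no fold was given if both tables were at or below the floor. Intervals are Clopper-Pearson 95% intervals, or exact conditional intervals of an odds ratio. Python 3.11.15, numpy 2.4.6, pandas 2.3.3, scipy 1.17.1 and matplotlib 3.10.9 were used, and the steps were tested on simulated counts.

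The members and lists were chosen with earlier results of these data known. Named were all members, their neighbours in rank, the 3 sequences nearest in fold to each 5p arm among those with at least 1000 reads, and members of the fixed lists (reference miRNAs, miRNAs raised in tumours, clusters in 1 host gene, cell markers, shared seeds, miRNA genes within 5 Mb), of which the extremes, the called and those a result turns on are given. Alternatives were TMM factors (edgeR 4.0.16), median-of-ratios factors (DESeq2 1.42.0, R 4.3.3), totals without the 5 most abundant sequences of each table, library totals of the study, exact or unique reads, summed arms, thinned spheroid reads (seed 1), Fisher's test, an assumed coefficient of variation of 0.2 or 0.4 (exact test of edgeR), and minimums of 10 or 100 reads.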

Additional observations from a re-analysis of the deposited data

How the results depend on the processing

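Leaving out single samples was not possible, since the tables hold 0 columns per sample. No paired analysis was possible because the columns carry no replicate number. Over both tables, 60 sequences were called (21 higher, 39 lower). With an assumed coefficient of variation of 0.2 in edgeR's exact test, 21 were called (13 higher, 8 lower), and with 0.4 there were 0. With at least 100 reads 36 were called, since fewer were tested (16 higher, 20 lower), and with the library totals of the study there were 145 (140 higher, 5 lower), a split that may reflect totals that do not belong to the deposited parental table. TMM factors gave 28 higher and 30 lower, and median-of-ratios factors gave 29 and 28.

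The fold of miR-191-5p turned above 1 with TMM factors (1.01), median-of-ratios factors (1.04) and the library totals of the study (2.00). Of the alternatives that only rescale the tables, totals without the 5 most abundant sequences alone kept it below 1 (0.957). It was below 1 under the rest of the 13 alternatives too, but not all of these could turn it. Fisher's test, an assumed coefficient of variation and the minimums of reads leave every fold of a tested member unchanged. The adjusted p of miR-191-5p was under 0.05 in 10 of the 13 alternatives, but not with TMM factors (0.413, Kal's Z-test) or an assumed coefficient of variation. These 10 do not share a direction. They include median-of-ratios factors (adjusted p 0.000352, Kal's Z-test) and the library totals, both with a fold above 1. The same library totals, with the doubt given above, also turned miR-191-3p (1.43) and miR-425-3p (1.57), and summing both arms turned the value of miR-425-3p (1.12), since the sum is mostly the 5p arm. miR-425-5p was above 1 under all 13 alternatives, including those named above that leave a fold unchanged and so could not turn it. Its lowest fold was 1.12, with both arms summed. It was called higher under 2 alternatives. These were exact mature reads (2.88, from 9 and 70 reads), as were 18 of 311 sequences, and the library totals (2.59), as were 140 of 436. The adjusted p of miR-425-5p was under 0.05 in 9 of the 13 alternatives. By Kal's Z-test it was 0.182 with thinned spheroid reads (fold 1.14) and 0.102 with both arms summed. It was also above 0.05 with either assumed coefficient of variation. With exact mature reads, the ratio of miR-191-5p to miR-425-5p changed by 0.308, and the 5p share was 100% for mir-191 in both tables and 100% for mir-425 in spheroid cells, since no exact 3p read was left there. In the parental table that share rests on 9 and 1 exact reads of mir-425. No fold could be computed for the 3p arms with exact reads, and miR-191-3p falls under the minimum of 100 reads. Arm shares, exact shares and list medians otherwise stayed within their intervals or the spread of the list.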

Other observations

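On GRCh37, 13 other miRNA genes are annotated within 5 Mb of mir-191 on chromosome 3, and 4 of them had a read. The only abundant one was let-7g-5p, a member of the let-7 family encoded in WDR82, with 1724 parental and 2908 spheroid reads and a fold of 0.586 (0.552 to 0.623), which was not called. miR-138-5p had 126 and 135 reads and a fold of 0.372 (0.290 to 0.479) and was called lower, but its sequence is also made from a stem-loop elsewhere, so its reads cannot be given to this region. miR-135a-3p had 4 and 7 reads and miR-4443 had 2 and 1.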
